A study of Sus scrofa with 6 samples.

Results

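The genes encoding the proteins of the cytosolic ribosome were followed in IPEC-J2 cells, an epithelial cell line from the small intestine of the pig, with and without the bile acid CDCA (chenodeoxycholic acid). Members were the gene IDs whose deposited symbol was RPL or RPS followed by a number, together with RPLP0, RPLP1, RPLP2 and RPSA. After the number a suffix letter A, X or L could follow, with or without a further number, as in RPL7L1. The rule used names and no measured value, and it gave 56 of the 31908 listed gene IDs. Of these, 33 carry the names of large (60S) subunit proteins and 23 the names of small (40S) subunit proteins.

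RNA was sequenced in 6 libraries. The 3 CON libraries came from cells given PBS and the 3 CDCA libraries from cells given 50 μM CDCA, each for 24 h, and all came from the same line with no genetic change named. The libraries of a group are called biological replicates in the study, without saying whether they came from separate cultures or days, and p-values measure the spread between these libraries. Values are TPM, a level scaled to transcript length and to the library total. The table holds no read counts, and the number of reads behind a single value is therefore not known. The read totals that the study gives per library were not used here, so counting error is given no interval. Tests were limma with a variance trend on log2(TPM + 1) over the 8708 genes whose mean reached 1 TPM, and FDR stands for the Benjamini-Hochberg adjusted p over those genes. Log2 fold changes are CDCA against CON on that scale.

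A ribosome carries 1 copy of nearly every ribosomal protein, with the acidic stalk proteins as the known exception. Their mRNAs are among the most abundant of a growing cell, and nearly all begin with a 5′ terminal oligopyrimidine (TOP) tract, through which the protein kinase complex mTORC1 and the RNA-binding protein LARP1 control their translation and stability. Proteins made in excess of ribosomal RNA are normally broken down, apart from RPL5 and RPL11, which with 5S rRNA can bind MDM2 and so act on p53.

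The labelled cell type was checked first. EPCAM, KRT8, KRT18 and CLDN4 were listed at a mean of at least 65.6 TPM in both groups, while CDH1, the adherens junction cadherin, was listed under 1 TPM. Summed, the 5 matched markers had 639 ± 12.9 TPM in CON and 1251 ± 69.8 TPM in CDCA (SD, n = 3), a difference that lay mainly in the tight junction protein CLDN4 (225 ± 11.2 TPM in CON and 806 ± 50.5 TPM in CDCA). The keratin KRT8 had 226 ± 9.98 TPM in CON and 208 ± 17.4 TPM in CDCA, KRT18 65.6 ± 0.896 TPM in CON and 75.1 ± 3.91 TPM in CDCA and EPCAM 122 ± 3.74 TPM in CON and 160.2 ± 11.4 TPM in CDCA. The 6 markers of immune, endothelial, fibroblast and muscle cells summed to 2.94, 4.6 and 3.07 TPM in CON 1 to 3 and 2.4, 2.28 and 2.4 TPM in CDCA 1 to 3, so every CDCA sum was below every CON sum (exact permutation p = 0.1, the smallest possible). The endothelial marker PECAM1, the only one to pass the filter, was lower (1.92 ± 0.242 TPM in CON and 1.22 ± 0.106 TPM in CDCA, log2 fold change -0.39, SE 0.11, FDR 0.0246), and the pan-leukocyte marker PTPRC was listed at 0 in the CON libraries. Since genes that every cell uses, such as RPS16, are also listed near 0, a low listed value does not show that a cell type was absent. The part of these cells in the results was not tested. In bulk RNA, fewer cells of a type and less RNA per cell cannot be told apart.

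RPL4 and RPL32 gave the first view of the group. RPL4, which lines the exit tunnel for the nascent chain in the large subunit (ENSSSCG00000004945), stood at 710.1, 685 and 662.5 TPM in CON 1 to 3 and at 1091, 1118 and 1119 TPM in CDCA 1 to 3. Every CDCA library was far above every CON library, and RPL4 had the largest rise of all members (log2 fold change 0.69, SE 0.037, FDR 2.34e-05). RPL32, a large subunit protein often used as a reference gene in RT-qPCR (ENSSSCG00000035811), stood at 291, 287 and 284 TPM in CON 1 to 3 and at 380.1, 394 and 377 TPM in CDCA 1 to 3. The groups did not overlap here either, and within each group the values lay within a few percent of each other (log2 fold change 0.42, SE 0.033, FDR 0.000102).

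Of the 56 members, 53 passed the filter on low values and 3 did not. Of the 53 tested, 41 were higher in CDCA, which is 77.4%, 3 were lower and 9 did not pass FDR 0.05. Over all tested genes, 29.3% were higher and 23.9% lower in CDCA by the same call. The tested members had a median log2 fold change of 0.37, with quartiles of 0.22 and 0.43, beside a median of 0.05 over all tested genes. The changes were small: by limma, no member passed both FDR 0.05 and a 2-fold change in either direction, whereas 3.51% of all tested genes did so upwards and 3.9% downwards. At an unadjusted p under 0.05, 41 members were higher and 5 lower, and none of these reached 2-fold.

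**Figure D1:**
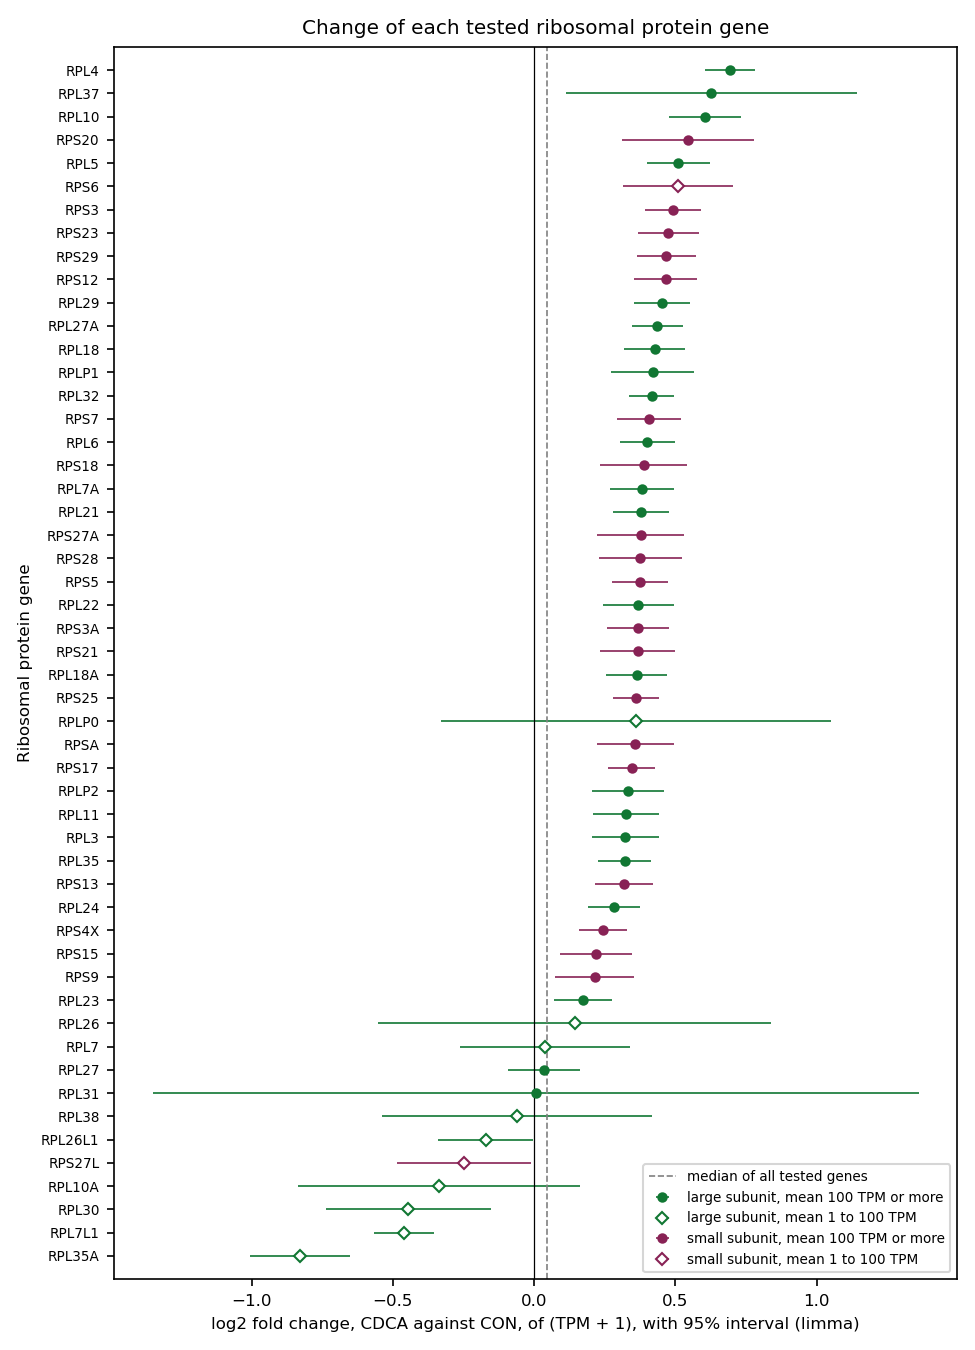
Log2 fold change of 52 of the 53 tested members (x axis, CDCA against CON, of TPM + 1) with its 95% limma interval, coloured by subunit, filled where the mean was 100 TPM or more and open below that, and with the median of all tested genes as a dashed line. The 41 filled points lie between 0.01 and 0.69 and 39 of them passed FDR 0.05, while the open points run from -0.83 to 0.51.

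In each library the rise was visible without any model. In 41 members every CDCA library was above every CON library, in 4 every CDCA library was below, and in 8 the groups overlapped, whereas over all tested genes 33.7% had every CDCA library above and 27.8% every CDCA library below. Summed over all 56 members, the level was 46142, 45921 and 44420.0 TPM in CON 1 to 3 and 58742, 61519 and 59901 TPM in CDCA 1 to 3. The lowest CDCA sum was thus well above the highest CON sum, and the ratio of the means (45494 ± 937 TPM in CON, 60054 ± 1395 TPM in CDCA) was 1.32. The exact two-sided permutation test gave p = 0.1, the smallest that 3 libraries against 3 allow.

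The share of the listed TPM that members held was 12.6, 12.6 and 12.4% in CON 1 to 3 and 16.7, 16.9 and 16.8% in CDCA 1 to 3, again with a wide gap (exact permutation p = 0.1, the smallest possible). Another abundant class differed in the opposite direction: the 13 mRNAs encoded by mitochondrial DNA (mtDNA) held 14.3 ± 0.640% of the listed TPM in CON and 3.204 ± 0.282% in CDCA. How far this difference raised the other values depends on the total over which the TPM were scaled, which was not settled here, since the listed rows sum to well under 1000000 TPM. With the share taken of the listed total without these mRNAs, an adjustment that rests on this partial total, the members' share was still higher in every CDCA library, at 14.6 ± 0.223% in CON and 17.4 ± 0.0984% in CDCA, a ratio of 1.19 in place of 1.34.

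The members' changes were therefore also read against the median of all genes under each scaling. Without the mtDNA mRNAs in the totals, the median log2 fold change of all tested genes moved by over 0.1, from 0.05 to -0.08, and 20.1% of all genes were higher and 31.9% lower. The median of the 42 members with a mean of at least 100 TPM moved with it, from 0.38 to 0.22, and 35 of them were still higher. With the members also left out of the totals, 22.5% of all genes were higher and 29.3% lower, and 36 of the 42 members were higher. The median of the tested members lay 0.30 to 0.32 above that of all genes under the 5 scalings. A scaling multiplies a whole library by one factor, so apart from the pseudocount this distance is fixed by construction and the scalings are no separate support for it.

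**Figure D2:**
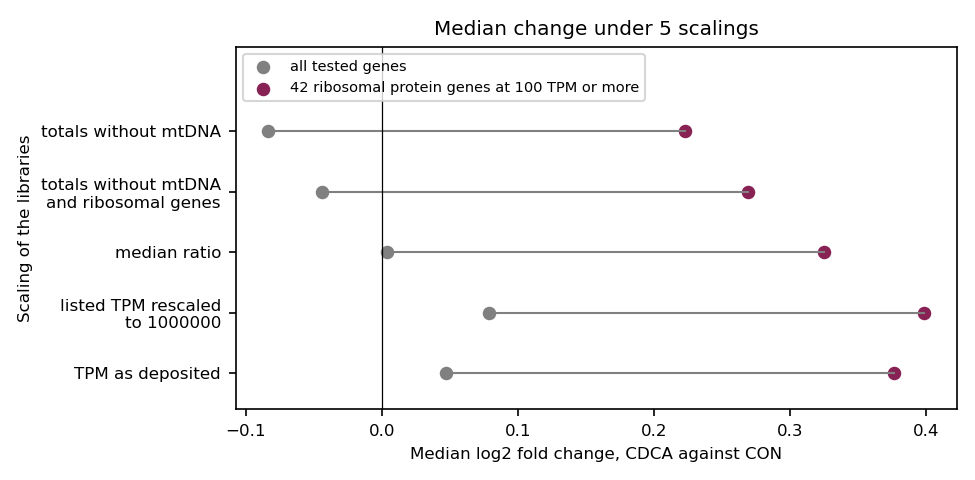
Median log2 fold change (x axis, CDCA against CON) of all tested genes in grey and of the 42 members with a mean of at least 100 TPM in purple, under the deposited TPM and 4 other scalings of the libraries (y axis). Both medians shift together, the grey one from -0.08 to 0.08 and the purple one from 0.22 to 0.40, as a factor common to all genes of a library must shift them.

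The members divided by the level at which they were listed. There were 42 members whose mean over the 6 libraries reached 100 TPM and 14 below it, a limit chosen after the values were seen, so the following counts are descriptions. Of the 42 abundant members, 40 were higher, none was lower and RPL27 and RPL31 did not pass. At an unadjusted p under 0.05 the counts were again 40 higher and 0 lower. Their median log2 fold change was 0.38, or 1.30-fold, with quartiles of 0.33 and 0.45. The 383 genes at that level that are neither members nor among the ribosomal protein gene IDs left out by the naming rule had a median of 0.03, with 154 higher and 145 lower.

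**Figure D3:**
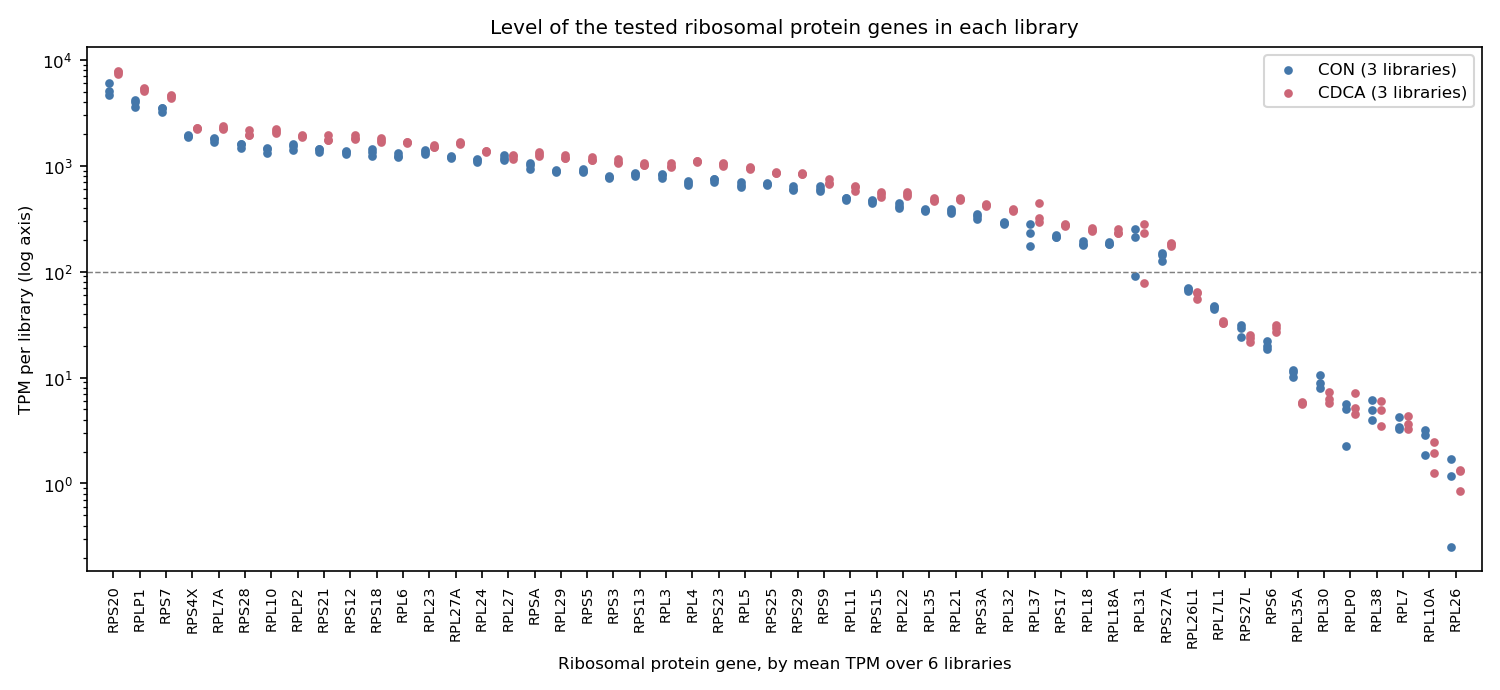
TPM of 52 of the 53 tested members in each library (y axis, log scale), with the members ordered along the x axis by their mean over the 6 libraries, CON libraries in blue and CDCA libraries in red; the dashed line marks 100 TPM. Red points lie above blue ones for 39 of the 41 members at or above the line, with overlap for RPL27 and RPL31. Below the line RPS6 shows the same order, and RPL35A, RPL7L1, RPL30 and RPL26L1 show the opposite one.

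RPS20, RPLP1 and RPS7 had the highest levels. RPS20, a protein of the head of the small subunit, stood at 4618, 5075 and 6066 TPM in CON 1 to 3 and at 7868, 7326 and 7663 TPM in CDCA 1 to 3. The CON libraries were widely spread, with CON 3 nearest to the CDCA libraries, yet the groups did not overlap (log2 fold change 0.55, SE 0.098, FDR 0.00359). RPLP1, an acidic protein of the stalk that recruits elongation factors, stood at 4161, 4002 and 3609 TPM in CON 1 to 3 and at 5040.1, 5423 and 5263 TPM in CDCA 1 to 3. CON 3 was here the lowest library, and the groups were well apart (log2 fold change 0.42, SE 0.062, FDR 0.00150). RPS7, a small subunit protein, stood at 3481, 3498 and 3211 TPM in CON 1 to 3 and at 4357, 4621 and 4520.5 TPM in CDCA 1 to 3, again with no overlap (log2 fold change 0.41, SE 0.048, FDR 0.000558).

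With RPS4X, a small subunit protein encoded on the X chromosome, and RPL7A, the 5 highest members held 35.7% of the members' TPM in CON and 36.5% in CDCA. Among the 42 abundant members the highest mean was 37.6 times the lowest in CON and 42.02 times in CDCA, and the median member stood at 817 TPM in CON and 1106 TPM in CDCA. Members took 16 of the 50 highest places among all genes.

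Among the large subunit members that rose most, RPL10, RPL37 and RPL5 differed in how firmly. RPL10, which joins the subunit at a late step of its assembly, stood at 1466, 1437 and 1312 TPM in CON 1 to 3 and at 2057, 2212 and 2135 TPM in CDCA 1 to 3. All CDCA libraries lay far above all CON libraries (log2 fold change 0.60, SE 0.054, FDR 0.000157). RPL37, a small zinc-binding protein, stood at 173, 232 and 284 TPM in CON 1 to 3 and at 295, 446 and 322 TPM in CDCA 1 to 3. Its lowest CDCA library was only just above its highest CON library (log2 fold change 0.63, SE 0.22, FDR 0.0460). The call was lost without CON 1 (FDR 0.111), CON 2 (0.0922), CDCA 2 (0.117) or CDCA 3 (0.0747), and without the mtDNA mRNAs in the totals (0.0994). It was also lost with the members left out of the totals too (0.0750) and under median ratio scaling (0.0687). The same held without the filter (0.112), with the highest listed transcript (0.0901) and without the variance trend (0.0628).

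RPL5 and RPL11 form the 5S ribonucleoprotein with 5S rRNA. RPL5 stood at 704, 663 and 629 TPM in CON 1 to 3 and at 942, 936 and 964 TPM in CDCA 1 to 3, with the CDCA values close together and far above CON (log2 fold change 0.51, SE 0.047, FDR 0.000191). RPL11, picked after its values were seen for its partnership with RPL5, stood at 499, 501 and 475 TPM in CON 1 to 3 and at 579, 637.5 and 633 TPM in CDCA 1 to 3. Its groups did not overlap either (log2 fold change 0.33, SE 0.049, FDR 0.00160). The difference between the changes of RPL5 and RPL11 was not tested.

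The stalk of the large subunit consists of RPLP0 with RPLP1 and RPLP2. RPLP2, picked after its values were seen, had 1519.9 ± 94.8 TPM in CON and 1912 ± 48.1 TPM in CDCA (SD, n = 3), with no overlap (log2 fold change 0.33, SE 0.053, FDR 0.00208). RPLP0, the base of the stalk, was listed far lower, at 2.27, 5.08 and 5.64 TPM in CON 1 to 3 and at 7.20, 4.56 and 5.13 TPM in CDCA 1 to 3. The libraries of both groups ran through each other, and no difference was detectable (95% interval -0.33 to 1.05, FDR 0.333).

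Small subunit members moved within a narrow range. All 20 abundant ones were higher in CDCA, from 0.21 for RPS9 to 0.55 for RPS20, with a median of 0.38. The 22 abundant large subunit members had the same median of 0.38 and 20 higher. Summed over all members, the small subunit level went from 24822 ± 217 to 33127 ± 581 TPM and the large subunit level from 20673 ± 995 to 26927 ± 848 TPM. The ratio of the sums was 1.14, 1.20 and 1.27 in CON 1 to 3 and 1.26, 1.22 and 1.22 in CDCA 1 to 3. The groups overlapped in this ratio (exact permutation p = 0.5), with means of 1.20 and 1.23.

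RPS6 is known as the small subunit protein that the S6 kinases phosphorylate. It was the only member listed under 100 TPM that rose, at 19.9, 22.3 and 18.7 TPM in CON 1 to 3 and at 27.1, 31.3 and 29.5 TPM in CDCA 1 to 3. The 3 CDCA libraries were all above the 3 CON libraries (log2 fold change 0.51, SE 0.081, FDR 0.00218). RPS3, which sits where the mRNA enters the subunit and was picked after its values were seen, had 785 ± 19.4 TPM in CON and 1103 ± 43.8 TPM in CDCA, also with no overlap (log2 fold change 0.49, SE 0.041, FDR 0.000129).

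At the lower end, RPS4X, RPS15, RPS9 and RPL23, picked after their values were seen, rose least among the abundant members that passed. RPS4X had 1905 ± 52.5 TPM in CON and 2255 ± 31.6 TPM in CDCA (log2 fold change 0.24, SE 0.036, FDR 0.00150). RPS15 had 462 ± 20 TPM in CON and 539 ± 29.4 TPM in CDCA (log2 fold change 0.22, SE 0.053, FDR 0.0123). RPS9 had 606 ± 33.2 TPM in CON and 704 ± 40.9 TPM in CDCA (log2 fold change 0.21, SE 0.058, FDR 0.0203). RPL23, a large subunit protein, had 1349 ± 59.5 TPM in CON and 1521 ± 32.9 TPM in CDCA (log2 fold change 0.17, SE 0.043, FDR 0.0137). In each of the 4, every CDCA library was above every CON library. With totals without the mtDNA mRNAs all 4 lost their call, with log2 fold changes of 0.09 for RPS4X (FDR 0.0673), 0.07 for RPS15 (FDR 0.235), 0.06 for RPS9 (FDR 0.329) and 0.02 for RPL23 (FDR 0.706). With the members also left out of the totals, RPS15 (FDR 0.0714), RPS9 (0.111) and RPL23 (0.226) lost it and RPS4X kept it (0.0164). RPS9 also lost it without CON 1 (FDR 0.0507), CON 3 (0.0546) or CDCA 2 (0.0514), under median ratio scaling (0.0529) and without the filter (0.0558). RPL23 also lost it without CON 2 (0.0520) or CDCA 3 (0.0507).

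RPL27 and RPL31 were the abundant members that did not pass, both picked after their values were seen. RPL27 stood at 1260.4, 1190.0 and 1132 TPM in CON 1 to 3 and at 1162, 1269 and 1239 TPM in CDCA 1 to 3. The groups overlapped and the difference was narrowly bounded around 0 (95% interval -0.093 to 0.16, FDR 0.609), with its sign turning to -0.12 without the mtDNA mRNAs in the totals. RPL31 stood at 254, 215 and 91.6 TPM in CON 1 to 3 and at 77.6, 279 and 233 TPM in CDCA 1 to 3. CON 3 and CDCA 1 were far below the other libraries of their groups, so that the interval was too wide to show a change (95% interval -1.35 to 1.36, FDR 0.995). The sign of RPL31 also turned, to -0.15 under that scaling and to -0.44, -0.34 and -0.21 without CON 3, CDCA 2 or CDCA 3.

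The 14 members listed under 100 TPM did not show the common rise. Of the 11 with a mean of at least 1 TPM, only RPS6 was higher, 3 were lower and 7 did not pass, with a median log2 fold change of -0.17. The share that was lower, 27.3%, was near the 23.9% over all tested genes, and the share that was higher, 9.09%, lay beside 29.3%. Summed, all 14 made up 200.5 ± 6.19 TPM in CON and 177 ± 7.83 TPM in CDCA. Most of these proteins belong to every ribosome. A value covers only the transcripts in the table, and any other transcript of the gene was not analysed here.

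RPL35A, a large subunit protein, had the largest fall, at 11.4, 11.7 and 10.1 TPM in CON 1 to 3 and at 5.93, 5.76 and 5.63 TPM in CDCA 1 to 3. The CDCA values were close together and all far below CON (log2 fold change -0.83, SE 0.074, FDR 0.000165). RPL30, another large subunit protein, stood at 10.6, 7.99 and 8.86 TPM in CON 1 to 3 and at 5.75, 7.32 and 6.27 TPM in CDCA 1 to 3. The lowest CON library was just above the highest CDCA library (log2 fold change -0.45, SE 0.12, FDR 0.0205), and the call was lost without CDCA 1 (FDR 0.0647) or CDCA 3 (0.0580). RPL10A was listed at only 2.64 ± 0.685 TPM in CON and 1.89 ± 0.616 TPM in CDCA, with overlapping libraries (log2 fold change -0.34, 95% interval -0.83 to 0.16, FDR 0.220).

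RPL38, RPL7 and RPL26, picked after their values were seen, were listed low and showed no detectable difference. RPL38 had 5.02 ± 1.09 TPM in CON and 4.81 ± 1.28 TPM in CDCA (FDR 0.818), and its sign turned to 0.07 without CON 1 and to 0.12 without CDCA 2. RPL7 had 3.63 ± 0.529 TPM in CON and 3.76 ± 0.557 TPM in CDCA (FDR 0.817), and its sign turned to -0.08 without the mtDNA mRNAs in the totals. RPL26, at 1.05 ± 0.739 TPM in CON and 1.16 ± 0.272 TPM in CDCA (FDR 0.704), turned to -0.18 without CON 3, in which it was listed at 0.25 TPM.

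The 3 members under 1 TPM were not tested. RPL10L, a copy of RPL10 known from the testis, was listed at 0.31 TPM in CON 1, 0.21 TPM in CDCA 2 and 0 in the other libraries. RPL3L, the form of RPL3 known from striated muscle, was listed between 0 and 0.14 TPM. RPS16, a protein of every ribosome, was listed between 0.16 and 0.68 TPM.

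RPL7L1, RPS27L and RPL26L1 are paralogs, genes related in sequence to RPL7, RPS27 and RPL26, and reads that fit both copies of a pair could be divided between them in the authors' quantification. The study reports a larger share of multiply mapped reads in the CON than in the CDCA libraries. The part of this difference in the values of these genes, or of the other members, was not tested. RPL7L1 stood at 46.5, 47.3 and 44.1 TPM in CON 1 to 3 and at 32.6, 34.0 and 32.8 TPM in CDCA 1 to 3. It was lower in every CDCA library (log2 fold change -0.46, SE 0.045, FDR 0.000233). RPS27L, known as a target of p53, stood at 31.1, 24.2 and 29.2 TPM in CON 1 to 3 and at 23.6, 25.1 and 21.7 TPM in CDCA 1 to 3. CON 2 lay among the CDCA libraries and the difference did not pass (log2 fold change -0.25, SE 0.10, FDR 0.0758). RPL26L1 stood at 68.9, 70.7 and 66.1 TPM in CON 1 to 3 and at 54.7, 64.6 and 63.5 TPM in CDCA 1 to 3. CDCA was lower throughout, but CON 3 and CDCA 2 were close (log2 fold change -0.17, SE 0.070, FDR 0.0790). Both passed as lower without the mtDNA mRNAs in the totals, RPL26L1 at -0.32 (FDR 0.00458) and RPS27L at -0.40 (FDR 0.0144), and RPS27L also without CON 2, at -0.35 (FDR 0.0143).

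The ratio of a paralog to its parent in the same library does not depend on the scaling. RPS27L was 0.0667, 0.0529 and 0.0686 of RPS27 in CON 1 to 3 and 0.0358, 0.0360 and 0.0325 of it in CDCA 1 to 3. Every CDCA ratio was below every CON ratio, and the ratio was 0.557 times that of CON (exact permutation p = 0.1, the smallest possible). RPS27 itself, a zinc-finger protein of the small subunit named only by its description in the table, rose (450.1 ± 21.3 TPM in CON and 675 ± 18.7 TPM in CDCA, log2 fold change 0.59, SE 0.045, FDR 9.13e-05). The ratio of RPL7L1 to RPL7 was 13.7, 11.2 and 13.5 in CON and 9.93, 9.37 and 7.51 in CDCA, 0.697 times that of CON (p = 0.1, exact). That ratio rests on the low listed value of RPL7.

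The ratio of RPL26L1 to RPL26 overlapped between the groups (log2 difference -0.69, exact permutation p = 0.7), and its sign turned to 0.12 without CON 3. RPL36AL, which the naming rule leaves out, had overlapping ratios to RPL36A, with 0.0772, 0.0755 and 0.0798 in CON and 0.0768, 0.0762 and 0.0755 in CDCA (p = 0.5, exact). A comparison added after the values were seen set each paralog against the summed abundant members in place of the parent. RPL7L1 was at 0.545, RPS27L at 0.633, RPL26L1 at 0.670 and RPL36AL at 0.877 times its CON ratio, each without overlap of the groups (exact permutation p = 0.1). That sum was built from members that mostly rose, so a gene that rose less falls against it by construction. These ratios therefore show nothing particular to paralogs. The pairs of RPL22, RPL39, RPL3, RPL10 and RPS4X were not computed.

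The change of a member was related to its level in the table, as a description over genes that share libraries. Over the 53 tested members the log2 fold change and the log2 of the mean TPM correlated at r = 0.65. Among the 42 abundant members alone r was 0.18.

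**Figure D4:**
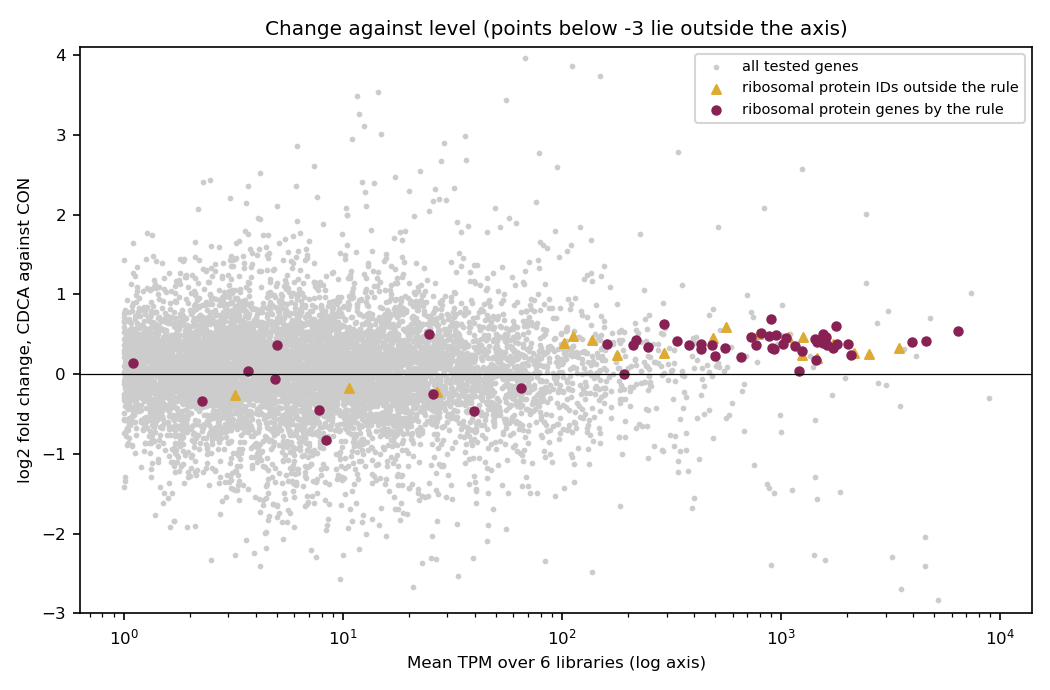
Log2 fold change (y axis, CDCA against CON, of TPM + 1) against the mean TPM over the 6 libraries (x axis, log scale) for all tested genes in grey, the members in purple and the ribosomal protein gene IDs that the naming rule leaves out as yellow triangles. At 100 TPM and above the purple points form a narrow band with a median of 0.38 while grey points spread on both sides of 0, and below 100 TPM the purple points scatter around a median of -0.17.

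Single listed transcripts of the members were compared in the same way. The 56 members had 139 listed transcripts, 1 each for 16 members and up to 7 for the others, and 99 passed the filter. Of these, 56 were higher and 8 lower, beside 23.1% higher and 18.7% lower among the 12205 transcripts tested in all. Of the 54 transcripts with a mean of at least 100 TPM, 49 were higher and 0 lower, with a median log2 fold change of 0.38. Of the 14 between 10 and 100 TPM, 5 were higher and 2 lower (median 0.09), and of the 31 between 1 and 10 TPM, 2 were higher and 6 lower (median -0.08).

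Genes that were abundant as a whole also had low listed transcripts. Of their 21 transcripts between 1 and 10 TPM, 2 were higher and 4 lower, with a median log2 fold change of -0.11, and the count of lower ones is near the 18.7% over all transcripts. The 2 higher ones belonged to RPLP1 (1.92 ± 1.64 TPM in CON and 6.99 ± 1.99 TPM in CDCA, log2 fold change 1.58, SE 0.42, FDR 0.0247) and RPL5 (2.26 ± 0.0643 TPM in CON and 3.43 ± 0.326 TPM in CDCA, log2 fold change 0.44, SE 0.10, FDR 0.0148). In RPL22, which binds RNA beyond its place in the ribosome, the third most abundant listed transcript stood at 8.37, 8.34 and 7.11 TPM in the CON libraries and 3.83, 3.98 and 3.83 TPM in the CDCA libraries (log2 fold change -0.87, SE 0.088, FDR 0.000559), while the gene as a whole rose (log2 fold change 0.37, SE 0.052, FDR 0.00127). In RPL31 the less abundant of the listed transcripts had a mean of 18.6 TPM, above the band counted here. It was steady within groups, at 24.5, 23.2 and 22.1 TPM in the CON libraries and 13.5, 14.6 and 13.7 TPM in the CDCA libraries, with every CDCA library lower (log2 fold change -0.70, SE 0.063, FDR 0.000337). The wide spread of RPL31 lay in the other transcript.

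In the 11 genes with more than 1 transcript at 100 TPM or above, 21 of those 23 transcripts were higher. RPL4 had both of its main transcripts up to a similar degree. The first stood at 410.4, 362 and 323 TPM in the CON libraries and 546, 574 and 583 TPM in the CDCA libraries (log2 fold change 0.64, SE 0.086, FDR 0.00178) and the second at 298, 321 and 337 TPM in the CON libraries and 542, 542 and 534 TPM in the CDCA libraries (log2 fold change 0.76, SE 0.050, FDR 0.000117). All of these transcripts were picked after their values were seen.

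**Figure D5:**
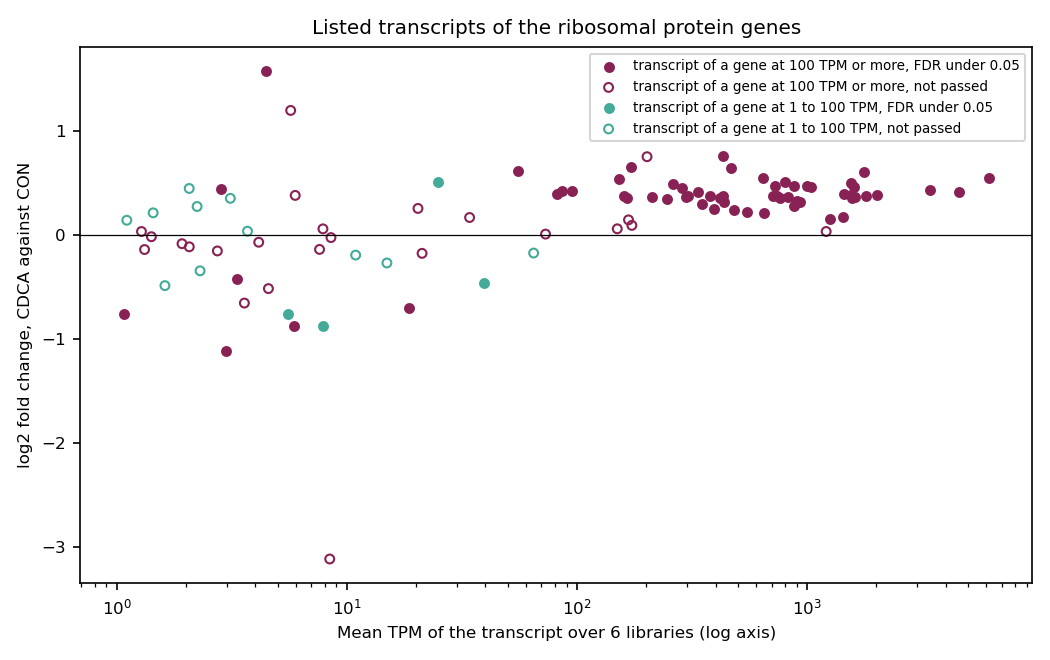
Log2 fold change (y axis, CDCA against CON, of TPM + 1) of the 99 tested transcripts of the members against their mean TPM (x axis, log scale), purple for genes at 100 TPM or more and green for genes below that, filled where the FDR was under 0.05. None of the 54 transcripts at 100 TPM or more has a value below 0, while 19 of the 31 between 1 and 10 TPM do.

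Libraries of a group differed from each other in a common direction across members. Of the 42 abundant members, 38 were lowest in CON 3 among the CON libraries and 28 were highest in CON 1. In the CDCA group 34 were highest in CDCA 2 and 34 lowest in CDCA 1. RPS20, RPL37 and RPS29, the last picked after its values were seen, went the other way in CON, with their highest value in CON 3. The spread was small all the same, with a median coefficient of variation of 4.38% in CON and 3.58% in CDCA, and with RPL31 as the widest at 45.3% and 53.7%.

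The naming rule does not take in every ribosomal protein gene. Of a standard list of 79 cytosolic ribosomal proteins, 51 were members, 20 were found under gene IDs without such a symbol in the deposited table, and 8 were not matched and are not analysed here. The 5 members not on that list were RPL10L, RPL3L, RPL7L1, RPL26L1 and RPS27L. In all, 21 gene IDs lay outside the rule, 8 named by a table of Ensembl IDs and symbols and 13 only by their description, and 19 were tested.

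These IDs did not enter the choice of members. Of the 19, 16 were higher and 0 lower (16 and 0 also at an unadjusted p under 0.05, by limma), with a median log2 fold change of 0.33, beside 29.3% higher and 23.9% lower over all tested genes. All 16 with a mean of at least 100 TPM were higher, with a median of 0.38. They include RPL13A, whose ID carries another gene's symbol, FLT3LG, in the deposited table and was taken from its description. RPS27 had the largest rise (0.59), followed by RPL14 with 651 ± 26.7 TPM in CON and 918 ± 18.8 TPM in CDCA (log2 fold change 0.50, SE 0.041, FDR 0.000116), while RPS24 was the most abundant with 3048 ± 90.4 TPM in CON and 3818 ± 21.0 TPM in CDCA (log2 fold change 0.33, SE 0.036, FDR 0.000433), the last 2 picked after their values were seen. RPS19, RPL34 and RPS15A, with group means between 2.82 and 29.0 TPM and picked after their values were seen, did not pass. Summed, the 21 IDs held 15530.5 ± 339.5 TPM in CON and 19550.2 ± 377 TPM in CDCA, a ratio of 1.26 (exact permutation p = 0.1).

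RACK1, a scaffold protein bound to the small subunit, and RPL36AL made up the matched part of a list of ribosomal genes with other names. RACK1 had 827 ± 22.1 TPM in CON and 1077 ± 35.8 TPM in CDCA (log2 fold change 0.38, SE 0.040, FDR 0.000318), and RPL36AL had 88.2 ± 1.44 TPM in CON and 102 ± 1.28 TPM in CDCA (log2 fold change 0.21, SE 0.033, FDR 0.00209). Both rose, and 1 of them was still called without the mtDNA mRNAs in the totals. FAU, whose product is a ribosomal protein fused to a ubiquitin-like protein, was left out, since its ID carries different names in the tables used.

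Other mRNAs known to carry a TOP tract, mostly translation factors, were taken from a list of 16, of which 14 were matched. Of these, 11 were higher and 1 lower, with a median log2 fold change of 0.56, beside 29.3% higher and 23.9% lower over all tested genes. Without the mtDNA mRNAs in the totals 8 were higher, beside 20.1% of all genes. The largest value was that of EEF2, the factor that moves the ribosome along the mRNA, but it was listed at 0, 0 and 5.18 TPM in CON 1 to 3 and at 3.18, 3.94 and 2.81 TPM in CDCA 1 to 3, and the difference did not pass (log2 fold change 1.22, SE 0.69, FDR 0.180). TPT1, EEF1B2 and BTF3, picked after their values were seen, had larger log2 fold changes than any ribosomal protein gene, a difference that was not tested. TPT1, the translationally controlled tumour protein, stood at 2311, 2249.8 and 2232 TPM in CON 1 to 3 and at 3838, 3875 and 4006 TPM in CDCA 1 to 3 (log2 fold change 0.79, SE 0.036, FDR 1.19e-05). EEF1B2, the exchange factor of the elongation factor EEF1A1, had 537 ± 37.1 TPM in CON and 923 ± 21.5 TPM in CDCA (log2 fold change 0.78, SE 0.056, FDR 6.37e-05).

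HNRNPA1, a splicing factor whose mRNA carries a TOP tract, picked after its values were seen, was the member of that list that fell, at 389, 374 and 365 TPM in CON 1 to 3 and at 193, 214 and 178 TPM in CDCA 1 to 3. Its CDCA libraries were all far below CON (log2 fold change -0.95, SE 0.068, FDR 6.51e-05). EEF1A1, which brings aminoacyl-tRNA to the ribosome, was found only by its description and was picked after its values were seen. It stood at 4977, 4969.6 and 4672 TPM in CON 1 to 3 and at 9677, 10158 and 9731 TPM in CDCA 1 to 3, and it was 2.02 times higher in CDCA (log2 fold change 1.02, SE 0.043, FDR 1.01e-05).

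The list of mTORC1 and LARP1 genes, which act on TOP mRNAs, holds activators together with inhibitors and repressors. Counts of its higher and lower genes therefore do not show which way this control moved. All 17 were matched and 12 tested, with 4 higher, 3 lower and 5 not passed. These shares, 33.3% and 25%, are near the 29.3% and 23.9% over all tested genes. SESN2, an inhibitor of mTORC1 induced by amino acid shortage, had the largest change, at 1.51, 1.81 and 2 TPM in CON 1 to 3 and at 20.1, 20.7 and 19.9 TPM in CDCA 1 to 3 (log2 fold change 2.94, SE 0.083, FDR 2.77e-06). The others named here were picked after their values were seen. RHEB, the small GTPase that activates mTORC1, rose (117 ± 4.77 TPM in CON and 165 ± 7.18 TPM in CDCA, log2 fold change 0.50, SE 0.048, FDR 0.000228), as did MTOR, the kinase itself (12.1 ± 0.316 TPM in CON and 14.6 ± 0.511 TPM in CDCA, log2 fold change 0.24, SE 0.053, FDR 0.00847). EIF4EBP2, a repressor of the cap-binding protein EIF4E, fell (23.8 ± 1.75 TPM in CON and 15.8 ± 0.703 TPM in CDCA, log2 fold change -0.56, SE 0.068, FDR 0.000635), and so did EIF4E (log2 fold change -0.32, SE 0.059, FDR 0.00415) and LARP1 (log2 fold change -0.20, SE 0.052, FDR 0.0175). With totals without the mtDNA mRNAs, 2 of the list were higher in place of 4.

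The chaperones that carry single ribosomal proteins to the pre-ribosome, together with the assembly factors of the 5S ribonucleoprotein and MDM2, did not share the rise. Of 11, 10 were matched and 8 tested, with 0 higher and 4 lower by limma (0 higher and 5 lower at an unadjusted p under 0.05; 1 higher without CON 1), beside 29.3% higher and 23.9% lower over all tested genes. RRS1, which brings the 5S ribonucleoprotein into the large subunit, had the largest change, at 34.8, 34.6 and 32.6 TPM in CON 1 to 3 and at 19.9, 19.0 and 20.4 TPM in CDCA 1 to 3. The groups were far apart (log2 fold change -0.75, SE 0.051, FDR 5.37e-05). MDM2, the ubiquitin ligase of p53 that free RPL5 and RPL11 bind, was picked after its values were seen and had 9.03 ± 2.15 TPM in CON and 5.78 ± 0.509 TPM in CDCA (log2 fold change -0.55, SE 0.15, FDR 0.0227). GRWD1, a chaperone of RPL3, also picked later, had 11.4 ± 0.231 TPM in CON and 8.59 ± 0.383 TPM in CDCA (log2 fold change -0.38, SE 0.058, FDR 0.00187).

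The ribosome of the mitochondrion is built from a separate set of nuclear genes, named MRPL and MRPS. Of the 70 listed, 61 were tested, with 10 higher (6 without CDCA 2) and 26 lower, and their median log2 fold change was -0.18. That is 16.4% higher and 42.6% lower, beside 29.3% and 23.9% over all tested genes. Their summed level was 1953, 1987 and 1912 TPM in CON 1 to 3 and 1652, 1709.7 and 1698 TPM in CDCA 1 to 3, with every CDCA sum below every CON sum (ratio 0.865, exact permutation p = 0.1). The cytosolic and the mitochondrial sums thus differed in opposite directions in the same libraries. MRPS21 had the largest value, at 8.94 ± 7.43 TPM in CON and 3.24 ± 3.15 TPM in CDCA, but with overlapping libraries (log2 fold change -1.37, SE 0.83, FDR 0.207). MRPS12, a protein of the decoding centre of the mitochondrial small subunit, fell the most of those that passed (23.8 ± 1.72 TPM in CON and 10.9 ± 1.05 TPM in CDCA, log2 fold change -1.07, SE 0.084, FDR 9.43e-05), and MRPL24 rose the most (16.6 ± 0.542 TPM in CON and 26.8 ± 0.481 TPM in CDCA, log2 fold change 0.66, SE 0.047, FDR 6.33e-05), both picked after their values were seen.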

How the data were processed

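RNA-seq libraries of IPEC-J2 cells (3 CON, 3 CDCA) were compared, grouped by the sample labels. The deposited TPM, which the authors computed with RSEM, cover 63041 listed transcripts. Per library they add up to between 351770 and 366073, less than the 1000000 of a full library, and the reason was not settled here. The submitters' processing notes name Bowtie 0.12.2 and the mouse build mm10, with no role given, so no coordinates or sequences are printed. All per-sample columns were used (0 left out).

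TPM of the listed transcripts were summed per gene ID. Genes whose mean over the 6 libraries reached 1 TPM were compared by limma 3.58.1 in R 4.3.3 (lmFit, eBayes with a trend) on log2(TPM + 1), unpaired, with Benjamini-Hochberg adjustment over all 8708 genes and a call at FDR 0.05. This scale understates changes of low genes. The authors' own comparison used edgeR, a test for read counts that was not run here. Single sums and ratios were compared by exact two-sided permutation tests. The steps were tested on simulated data. Large subunit members were the RPL and RPLP names, small subunit members the RPS and RPSA names.

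The members, gene lists and rules were chosen with earlier results of these data known. Named genes were RPL4 and RPL32, the 3 highest members, the 6 largest rises and falls, paralog pairs, members under 1 TPM and the largest change of each list; any other gene named was picked after its values were seen. The result for 1 member, counted in the totals, is not given by name. Alternatives were a pseudocount of 0.1 TPM, no filter, 4 other scalings (totals without mtDNA mRNAs, with or without the members; median ratio; listed TPM rescaled to 1000000), the highest listed transcript, a replicate block, no variance trend, each library left out, and other membership.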

Additional observations from a re-analysis of the deposited data

How the results depend on the processing

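Of 794 refits of the 53 tested members, 741 kept both direction and side of FDR 0.05, 28 lost the call, 7 gained it and 18 turned in sign; 40 members kept both throughout. With libraries left out in turn, 39 to 41 members were higher and 2 to 4 lower, with medians of 0.33 to 0.39 (large subunit 0.30 to 0.37, small subunit 0.34 to 0.40) and a summed ratio of 1.30 to 1.33. Totals without the mtDNA mRNAs gave 36 higher and 5 lower members and medians of 0.22 in all, 0.18 for the large and 0.22 for the small subunit; leaving out the members too gave 37 and 5, with 0.26, 0.23 and 0.27; median ratio scaling gave 39 and 5, with 0.28 for the large and 0.32 for the small subunit. The 5 lower were reached with RPL26L1 and RPS27L. Same-numbered libraries did not deviate together (r of -0.035, -0.092 and -0.051) and share only a number; the replicate block gave 41 higher and 2 lower members, RPL30 losing its call (FDR 0.0577). Without the filter on low values the calls over all genes went from 29.3% to 11.5% higher and from 23.9% to 9.11% lower, over a larger number of genes tested.

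Under totals without the mtDNA mRNAs, median ratio scaling and totals without these and the members, log2 fold changes turned to -0.082, -0.0017 and -0.046 for RPL7, -0.12, -0.016 and -0.072 for RPL27, and -0.15, -0.045 and -0.10 for RPL31. With libraries left out they ran from -0.052 to 0.13 for RPL7 (negative without CON 3 or CDCA 3), from -0.0022 to 0.075 for RPL27 (negative without CON 3), from -0.44 to 0.57 for RPL31 (negative without CON 3, CDCA 2 or CDCA 3) and from -0.18 to 0.25 for RPL26 (negative without CON 3; without CON 1 it fell under the filter and gave no value). RPL38 ran from -0.21 to 0.12 (0.072 without CON 1, 0.12 without CDCA 2). The log2 ratio of RPL26L1 to RPL26 ran from -1.24 to 0.12 with libraries left out, reversed without CON 3. Totals without the mtDNA mRNAs left 1 higher gene in the list of ribosomal genes with other names, 2 in the mTORC1 list (also without the members) and 6 mitochondrial ribosomal protein genes. With libraries left out, 0 to 1 chaperone and 5S genes were higher (1 without CON 1), as were 6 to 10 mitochondrial ones (6 without CDCA 2). The causes were not tested. Without read counts per gene, the number of reads behind low values is not known.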
